A study of Mus musculus with 21 samples.

Results

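Nascent transcription of 9 mouse genes for synaptic adhesion proteins was followed across the 7 groups of a BrU-seq study of cortical cultures. The genes were the neurexins Nrxn2 and Nrxn3, the neuroligins Nlgn1, Nlgn2 and Nlgn3, and the leucine-rich repeat transmembrane genes Lrrtm1, Lrrtm2, Lrrtm3 and Lrrtm4. They were chosen by name as members of these families, out of 24984 genes in the count table, and all 9 passed the filter on low counts. In BrU-seq, bromouridine enters newly made RNA, which is then pulled down and sequenced, so a whole-gene count holds intronic as well as exonic reads. Cultures came from the cortex of CD1 mice and were used on day 17 in vitro. They were kept for 30 min with the solvent DMSO or with 25 µM MM401, then given 40 µM bicuculline or water, and all of them received 2 mM bromouridine for the closing 30 min. The groups were DMSO with water for 4 h, DMSO with bicuculline for 1 h or 4 h, MM401 with water for 1 h or 4 h, and MM401 with bicuculline for 1 h or 4 h. Each group had 3 biological replicates of mixed sex per the labels. Replicate 3 of MM401 with water for 4 h held 316741 counts in genes, against 49886348 to 87939384 in the other 20 libraries, and was left out, so that group has 2 libraries. No DMSO group with water for 1 h was analysed here, so bicuculline for 1 h in DMSO is set against water for 4 h.

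Neurexins sit in the presynaptic membrane and reach across the cleft to partners on the other cell. Neuroligins and LRRTM proteins are postsynaptic partners of neurexins and help to organise the synapse: neuroligin-1 is found mainly at excitatory synapses, neuroligin-2 at inhibitory ones, and LRRTM proteins at excitatory ones. Bicuculline, a blocker of GABA-A receptors, lets network activity rise, which cultured neurons answer over hours to days by scaling their synapses down. MM401 blocks the contact of the histone H3 lysine 4 methyltransferase MLL1 with its partner WDR5. MLL1 carries a CXXC domain, which binds unmethylated CpG sites.

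Windows before 1 listed start each of Lrrtm1 and Nlgn2 are shown because both genes rose with bicuculline and the windows differ in CpG content. RefSeq sequences on GRCm38.p6 were found for 6 of the 9 genes, as 10 start sites; Nrxn2, Nlgn3 and Lrrtm2 had no entry. Each sequence is the 250 bases before the start, 5′ to 3′ on the gene's strand, with CpG sites in capitals. The Lrrtm1 window is chr6:77242227-77242476 on the plus strand, and the Nlgn2 window is chr11:69837785-69838034 on the minus strand. The Lrrtm1 window lies before the start that the count table uses. RefSeq's Lrrtm1 gene begins farther upstream, at -13266 bases from that start, and the sequence there was not analysed here, so the window may not be the promoter in use.
Lrrtm1: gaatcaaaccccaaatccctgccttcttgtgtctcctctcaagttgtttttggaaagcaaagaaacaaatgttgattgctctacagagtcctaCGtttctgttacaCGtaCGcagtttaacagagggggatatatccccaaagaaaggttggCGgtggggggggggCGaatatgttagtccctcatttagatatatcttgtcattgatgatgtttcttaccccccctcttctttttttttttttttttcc
Nlgn2: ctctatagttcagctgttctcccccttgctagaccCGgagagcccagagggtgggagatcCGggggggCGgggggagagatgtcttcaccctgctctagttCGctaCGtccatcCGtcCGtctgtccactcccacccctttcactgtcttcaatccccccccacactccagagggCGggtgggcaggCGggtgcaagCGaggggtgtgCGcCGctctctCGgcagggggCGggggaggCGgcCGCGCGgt
The Lrrtm1 window held 5 CpG sites and 42% G+C, and the Nlgn2 window held 18 CpG sites and 67.6% G+C. The median of 32851 mouse promoter windows of this length was 6 CpG sites and 52.4% G+C.

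The 10 windows were searched on both strands for the cyclic AMP response element (TGACGTCA), its core (TGACG, which the full element contains), the AP-1 site (TGANTCA), the EGR site (GCGTGGGCG) and the E-box (CACGTG). The only match was TGATTCA, an AP-1 letter pattern, in the second Nrxn3 window, 231 bases before that start. Over all 32851 windows, 1.55% held the full cyclic AMP element, 17.8% its core, 6.75% the AP-1 pattern, 0.536% the EGR pattern and 6.02% the E-box. A match is a description of letters, and its absence says nothing of the factors.

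The genes differ greatly in length. On build mm10, with positions as the table gives them, Nrxn2 spans chr19:6418737-6533217 (plus strand, 114.5 kb) and Nrxn3 chr12:88794503-90334933 (plus, 1540 kb). Nlgn1 spans chr3:25421807-26331909 (minus, 910.1 kb), Nlgn2 chr11:69823122-69837784 (minus, 14.66 kb) and Nlgn3 chrX:101299178-101321350 (plus, 22.17 kb). Lrrtm1 spans chr6:77242476-77259915 (plus, 17.44 kb), Lrrtm2 chr18:35209005-35215024 (minus, 6.02 kb), Lrrtm3 chr10:63928496-64090255 (minus, 161.8 kb) and Lrrtm4 chr6:80018876-80810143 (plus, 791.3 kb). The table's lower coordinate lies 1 base before that of RefSeq for Nlgn1, Nlgn2, Nlgn3 and Lrrtm3, so these coordinates may be counted from 0. RefSeq's Nrxn3 begins farther upstream, at -71802 bases from the table's start, so part of it lies outside the counted span.

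Per kb of span, Lrrtm2 had the highest level of the 9, with a mean of 5.77 ± 1.09 CPM per kb (SD over 20 libraries; CPM divides each count by its library size after TMM scaling). Its lowest library, at 4.42 CPM per kb, lay above the highest library of every other member, the highest of which was 3.06 CPM per kb for Nlgn1. The order then ran Nlgn1 (2.43 ± 0.34 CPM per kb), Nrxn3 (2.41 ± 0.33), Lrrtm3 (1.95 ± 0.26), Nlgn2 (1.91 ± 0.27), Lrrtm4 (1.41 ± 0.27), Nlgn3 (1.39 ± 0.21), Nrxn2 (1.32 ± 0.12) and Lrrtm1 (1.08 ± 0.24). In each of these neighbouring pairs the ranges of the libraries overlapped, so their order is not settled beyond the spread. Nascent counts per kb reflect how much RNA was newly made per length of gene during labelling, not the amount of mature mRNA.

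**Figure D1:**
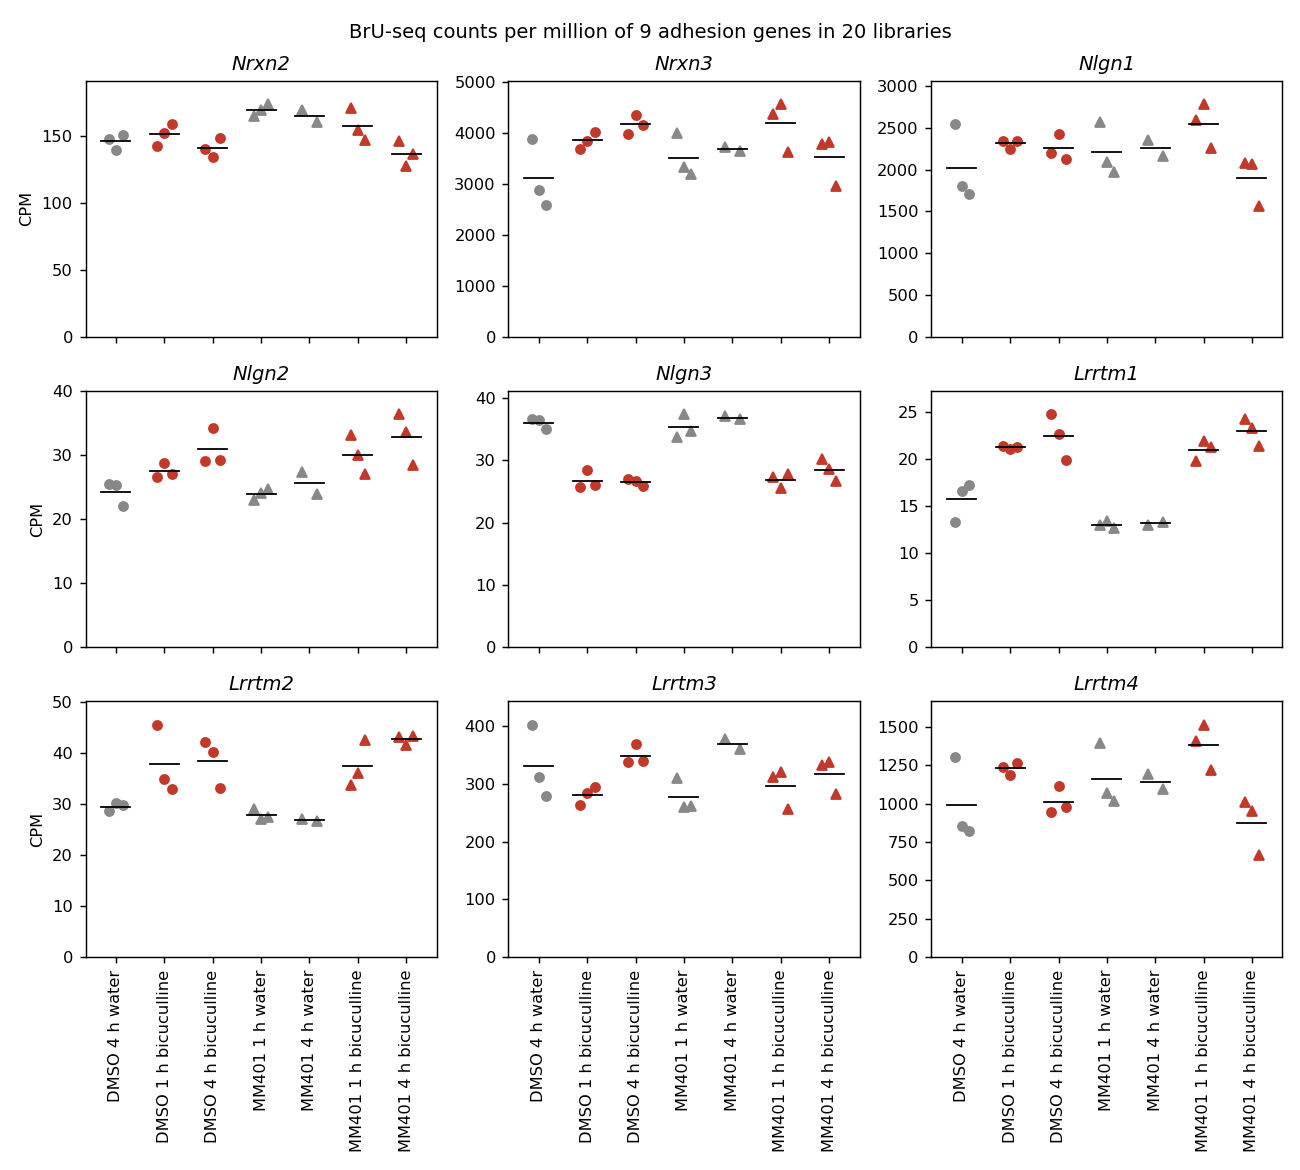
CPM (vertical axis from 0) of each of the 9 genes in the 20 libraries, by group; grey marks water, red marks bicuculline, circles DMSO, triangles MM401, and black lines group means. Nlgn3 lies lower, and Lrrtm1 and Lrrtm2 higher, in every bicuculline library than in every water library.

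The members Lrrtm1, Lrrtm2 and Lrrtm3 lie wholly inside α-catenin genes on the opposite strand: Lrrtm1 inside Ctnna2, Lrrtm2 inside Ctnna1 and Lrrtm3 inside Ctnna3. No other gene with 1 position in the table overlaps a member. The 412 genes with more than 1 position were left out of this check and of the strand check that follows. The use of strand in the counting is not stated in the sources used here, but the table behaves as if strand was used. All 1028 genes nested in another gene on the same strand had no count, while of 716 genes nested on the opposite strand only 63 (8.8%) had none and 78 (10.9%) exceeded their host. Lrrtm3 had 403091 counts over the 20 libraries against 28864 in Ctnna3, so the host has the lower count. Lrrtm2 had 44716 counts against 140783 in Ctnna1, and Lrrtm1 had 24208 against 1775262 in Ctnna2. Of the members, Lrrtm1 thus has the smallest count beside its host, but each host spans more bases. Per kb of span, Lrrtm1 had 1388 counts against 1617 in Ctnna2. Lrrtm2 had 7428 against 1036 in Ctnna1, and Lrrtm3 had 2492 against 18.34 in Ctnna3.

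Bicuculline changed 3 to 5 of the 9 genes in each of the 4 comparisons with water. Nlgn3 was called lower, and Lrrtm1 and Lrrtm2 higher, in all of them. How many of all tested genes were called in the same direction in all 4 was not counted. At 1 h in DMSO 3 members were called (edgeR quasi-likelihood test, Benjamini-Hochberg adjusted p under 0.05), 2 higher and 1 lower, when 44.6% of the 16959 tested genes were called. At 4 h in DMSO 5 were called, 4 higher and 1 lower, against 49.2% of genes (23.7% higher and 25.5% lower). In MM401 4 were called at 1 h, 3 higher and 1 lower, against 39.9% of genes, and 5 at 4 h, 3 higher and 2 lower, against 44.6% (23.0% higher and 21.7% lower). The share of members called was near that of all genes in each comparison. The DMSO comparisons share their water libraries, so their values are given side by side.

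The median log2 fold change of the 9 members in these comparisons was 0.19, 0.16, 0.25 and -0.22, beside -0.04, -0.02, -0.00 and 0.02 over all tested genes. Of the calls over all genes, 44.9%, 48.1%, 45.4% and 51.5% were higher. Scaling by plain library totals moved the all-gene medians to -0.23, -0.30, -0.21 and -0.06, and the shares of higher calls to 21.2%, 18.8%, 16.3% and 40.3%. With that scaling, Lrrtm1 and Lrrtm2 were not called in either DMSO comparison (log2 fold change 0.23 and 0.17 at 1 h, 0.23 and 0.11 at 4 h), while Nlgn3 was called lower in all 4. It also ended the calls of Nlgn2 and Nrxn3 at 4 h in DMSO and of Nlgn2 and Lrrtm2 at 1 h in MM401, and at 4 h in DMSO Lrrtm3 was then called lower (-0.19). The changes given here are therefore relative to the other genes. Keeping the shallow library in the fit ended 7 member calls, with adjusted p from 0.0543 to 0.313, while each kept its sign. At 4 h in DMSO Nrxn3 was then at 0.40 (0.42 without the library) and Nlgn2 at 0.33 (0.35). In MM401 Nlgn2 was at 0.33 (0.33) at 1 h and Nrxn2 at -0.21 (-0.27) at 4 h. Between the times Lrrtm3 was at 0.27 (0.31) in DMSO, and Nlgn1 at -0.44 (-0.42) and Nrxn2 at -0.23 (-0.20) in MM401.

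**Figure D2:**
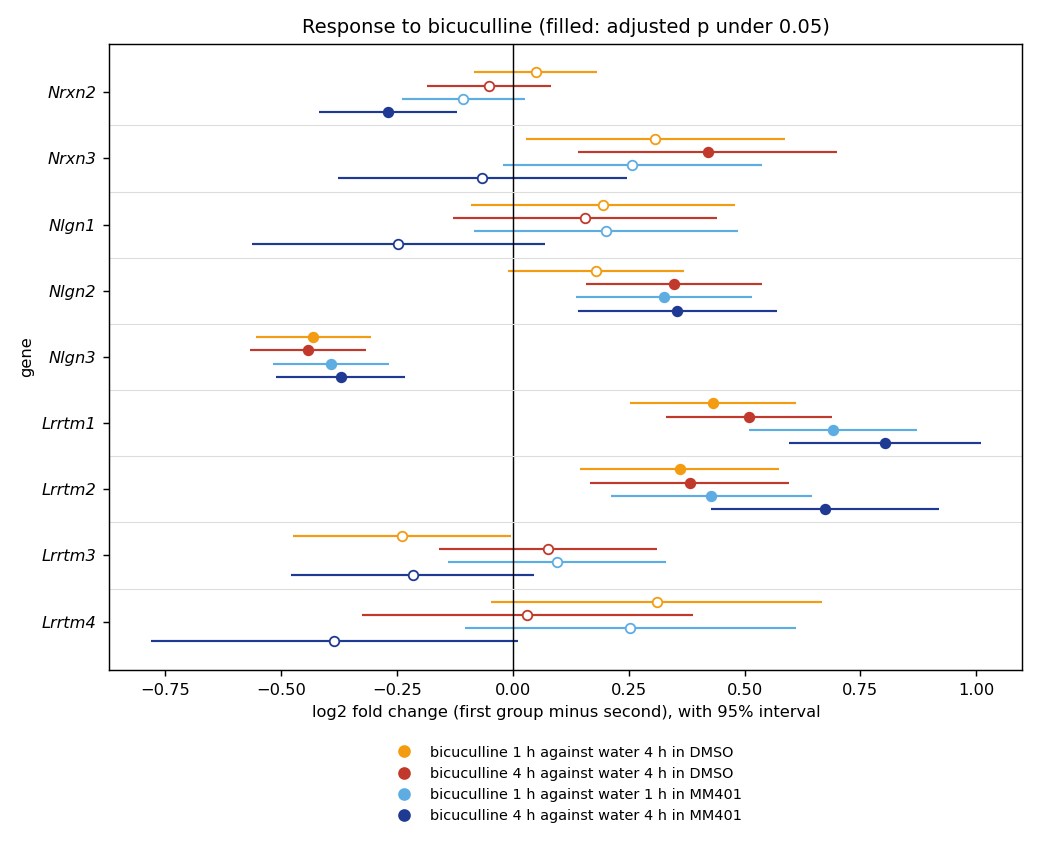
Log2 fold change (horizontal axis) with its 95% interval for each gene in the 4 comparisons of bicuculline with water; filled circles were called at an adjusted p under 0.05. Nlgn3 is left of 0, and Lrrtm1 and Lrrtm2 right of 0, in all 4.

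Among the neurexins, Nrxn3 rose at 4 h of bicuculline in DMSO and Nrxn2 fell at 4 h in MM401. In water at 4 h in DMSO, Nrxn3 stood at 3878, 2871 and 2588 CPM in replicates 1, 2 and 3. With bicuculline it stood at 3688, 3842 and 4023 CPM at 1 h and at 3978, 4355 and 4160 CPM at 4 h. All 3 libraries at 4 h were above all 3 water libraries, but water replicate 1 lay close to the bicuculline values and above the other water libraries. The log2 fold change was 0.42 ± 0.13 (SE) at 4 h (edgeR adjusted p = 0.0128) and 0.31 ± 0.13 at 1 h (adjusted p = 0.0685). The call at 4 h was lost without water replicate 2 (adjusted p = 0.0811) or without water replicate 3 (adjusted p = 0.116), and without water replicate 1 the gene was called at 1 h too, with a log2 fold change of 0.50. DESeq2 called it at 1 h with all 20 libraries (0.34, adjusted p = 0.0231). The call at 4 h was also lost when only the groups compared were fitted (0.40, adjusted p = 0.0804).

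Under MM401, Nrxn3 stood at 3994, 3324 and 3191 CPM in water at 1 h and at 4368, 4560 and 3633 CPM in bicuculline at 1 h. It stood at 3727 and 3635 CPM in water at 4 h and at 3783, 3811 and 2955 CPM in bicuculline at 4 h. These ranges overlapped at both times. The log2 fold changes of 0.26 ± 0.13 at 1 h (edgeR adjusted p = 0.137) and -0.07 ± 0.15 at 4 h (adjusted p = 0.749) did not pass the test. The 95% interval at 4 h ran from -0.38 to 0.25.

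Nrxn2 did not pass the test in DMSO with the TMM scaling, but its calls depended on the scaling. It stood at 147.5, 139.3 and 150.8 CPM in water at 4 h, at 142, 152 and 158.8 CPM in bicuculline at 1 h, and at 140, 133.9 and 148.2 CPM in bicuculline at 4 h, with overlapping ranges. Under MM401 it stood at 169.5 and 160.1 CPM in water at 4 h and at 145.9, 127.6 and 136.5 CPM in bicuculline at 4 h, and these did not overlap. The log2 fold change there was -0.27 ± 0.07 (edgeR adjusted p = 0.00404), and at 1 h in MM401 it was -0.11 ± 0.06 (adjusted p = 0.199). At 4 h in DMSO it was -0.05 ± 0.06 (adjusted p = 0.533). With the gene length correction it was called lower at 4 h in DMSO (-0.24, adjusted p = 0.00104) and at 1 h in MM401 (-0.23, adjusted p = 0.00249). With plain library totals it was called lower in both as well (-0.33 and -0.32, adjusted p = 0.000263 and 0.000415).

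Among the neuroligins, Nlgn3 fell and Nlgn2 rose, while Nlgn1 did not pass the test. Nlgn3 stood at 36.7, 36.5 and 35.1 CPM in DMSO with water, at 25.7, 28.5 and 26.1 CPM after 1 h of bicuculline, and at 27.1, 26.7 and 25.9 CPM after 4 h. Under MM401 it stood at 33.8, 37.4 and 34.7 CPM in water at 1 h and 37.2 and 36.6 CPM at 4 h, against 27.3, 25.6 and 27.8 CPM in bicuculline at 1 h and 30.2, 28.6 and 26.7 CPM at 4 h. Every bicuculline library was below every water library. The log2 fold changes were -0.43 ± 0.06 at 1 h and -0.44 ± 0.06 at 4 h in DMSO (edgeR adjusted p = 5.58e-06 and 2.65e-06), and -0.39 ± 0.06 and -0.37 ± 0.07 in MM401 (adjusted p = 2.13e-05 and 0.000114). Nlgn3 was called in every alternative that was run on these 4 comparisons, leaving out each library included. Its log2 fold changes in the alternatives ran from -0.62 to -0.33 at 1 h and from -0.72 to -0.39 at 4 h in DMSO. In MM401 they ran from -0.60 to -0.30 at 1 h and from -0.45 to -0.33 at 4 h. Among the 6895 tested genes of 20 to 100 kb, its change at 4 h in DMSO was at percentile 10.5.

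Nlgn2, the neuroligin of inhibitory synapses, stood at 25.5, 25.4 and 22.1 CPM in DMSO with water, at 26.7, 28.8 and 27.1 CPM at 1 h of bicuculline and at 29.2, 34.3 and 29.3 CPM at 4 h. The ranges did not overlap at either time, yet only the change at 4 h passed the test, at 0.35 ± 0.09 on the log2 scale (edgeR adjusted p = 0.00312), against 0.18 ± 0.09 at 1 h (adjusted p = 0.117). With the gene length correction the value at 1 h was 0.32 and was called (adjusted p = 0.0147). Under MM401 it rose from 23.0, 24.2 and 24.8 CPM in water to 33.2, 29.98 and 27.02 CPM at 1 h, and from 27.4 and 23.98 CPM to 36.4, 33.7 and 28.5 CPM at 4 h. The log2 fold changes were 0.33 ± 0.09 (adjusted p = 0.00691) and 0.35 ± 0.10 (adjusted p = 0.00782). The call at 1 h was lost without replicate 1 of MM401 with bicuculline at 1 h (adjusted p = 0.0532), and that at 4 h when water replicate 2 was left out (log2 fold change 0.23, adjusted p = 0.184).

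Nlgn1, the neuroligin of excitatory synapses, stood at 2552, 1805 and 1710 CPM in DMSO with water, with replicate 1 well above the others. Bicuculline libraries stood at 2347, 2247 and 2345 CPM at 1 h and 2201, 2428 and 2130 CPM at 4 h, between the water values. On the log2 scale the changes of 0.19 ± 0.14 (edgeR adjusted p = 0.265) and 0.16 ± 0.14 (adjusted p = 0.371) did not pass the test. Without water replicate 1 they were 0.40 and 0.36 and both passed (adjusted p = 0.0103 and 0.0180). Under MM401 the gene stood at 2566, 2096 and 1975 CPM in water and 2589, 2782 and 2254 CPM in bicuculline at 1 h. At 4 h it stood at 2356 and 2163 CPM in water and 2078, 2069 and 1563 CPM in bicuculline. The log2 fold changes were 0.20 ± 0.14 (adjusted p = 0.264) and -0.25 ± 0.15 (adjusted p = 0.197), and the libraries at 4 h did not overlap. The value at 4 h was called lower with the gene length correction (-0.18, adjusted p = 0.0362) and with plain library totals (-0.33, adjusted p = 0.0218).

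Among the LRRTM genes, the short Lrrtm1 and Lrrtm2 rose in all 4 comparisons, and the longer Lrrtm3 and Lrrtm4 passed the test in none of them, though several alternatives called them, lower in some comparisons and higher in others, as given with each gene. Lrrtm1 stood at 13.4, 16.6 and 17.2 CPM in DMSO with water, at 21.4, 21.1 and 21.3 CPM after 1 h of bicuculline and at 24.8, 22.7 and 19.98 CPM after 4 h. All bicuculline libraries were above all water libraries. The log2 fold change was 0.43 ± 0.09 at 1 h (edgeR adjusted p = 0.000328) and 0.51 ± 0.09 at 4 h (adjusted p = 4.10e-05), or 1.35-fold and 1.42-fold. Under MM401 Lrrtm1 stood at 13.0, 13.4 and 12.7 CPM in water at 1 h and 13.0 and 13.4 CPM at 4 h. It rose to 19.8, 21.9 and 21.3 CPM at 1 h of bicuculline and to 24.3, 23.3 and 21.4 CPM at 4 h. On the log2 scale the changes there were 0.69 ± 0.09 (adjusted p = 1.72e-06) and 0.80 ± 0.10 (adjusted p = 1.18e-06). Among the 7714 tested genes under 20 kb, these 4 changes lay between percentiles 87.0 and 92.2.

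Lrrtm2 stood at 28.6, 30.1 and 29.7 CPM in DMSO with water, at 45.6, 34.9 and 32.9 CPM at 1 h of bicuculline and at 42.1, 40.1 and 33.0 CPM at 4 h. No bicuculline library overlapped the water range, but replicate 1 was the highest at each time. On the log2 scale the changes were 0.36 ± 0.10 (edgeR adjusted p = 0.00739) and 0.38 ± 0.10 (adjusted p = 0.00424), and at 1 h the call was lost without replicate 1 of the bicuculline group (log2 fold change 0.20, adjusted p = 0.0789). Under MM401 Lrrtm2 rose from 29.0, 27.1 and 27.4 CPM to 33.7, 36.0 and 42.5 CPM at 1 h, and from 26.95 and 26.6 CPM to 43.0, 41.6 and 43.4 CPM at 4 h. On the log2 scale the changes were 0.43 ± 0.10 (adjusted p = 0.00241) and 0.67 ± 0.12 (adjusted p = 0.000109).

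Lrrtm3 stood at 403.4, 311.7 and 278.8 CPM in DMSO with water, at 263.2, 283.8 and 295.2 CPM at 1 h of bicuculline and at 338.7, 368.8 and 339.9 CPM at 4 h. The ranges overlapped, and the log2 fold changes of -0.24 ± 0.11 (edgeR adjusted p = 0.0929) and 0.08 ± 0.11 (adjusted p = 0.611) did not pass the test. The value at 1 h was called lower without water replicate 3 (log2 fold change -0.33, adjusted p = 0.0228), and the value at 4 h was called higher without water replicate 1 (0.24, adjusted p = 0.0455). Under MM401 Lrrtm3 stood at 310.3, 260.7 and 261.8 CPM in water and 312.4, 321.1 and 256.3 CPM in bicuculline at 1 h, then at 378.2 and 360.7 CPM in water and 333.3, 337.7 and 283.1 CPM in bicuculline at 4 h. Its log2 fold changes there were 0.10 ± 0.11 (adjusted p = 0.537) and -0.22 ± 0.13 (adjusted p = 0.170). With the gene length correction Lrrtm3 was called lower at 1 h in DMSO (-0.42, adjusted p = 0.000653) and at 4 h in MM401 (-0.27, adjusted p = 0.0294). It was also called lower in both with plain library totals (-0.42 and -0.29), and at 4 h in MM401 when only the groups compared were fitted (-0.24, adjusted p = 0.0134).

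Lrrtm4, 791.3 kb long, stood at 1303, 853 and 821.7 CPM in DMSO with water, at 1240, 1190 and 1262 CPM at 1 h of bicuculline and at 945.5, 1118 and 978.4 CPM at 4 h. Water replicate 1 again stood above the other water libraries and made the ranges overlap. The log2 fold changes were 0.31 ± 0.17 (edgeR adjusted p = 0.151) and 0.03 ± 0.17 (adjusted p = 0.900), and the value at 1 h was 0.56 and called without that library (adjusted p = 0.00627). With the replicate number as a block it was called as well (0.34, adjusted p = 0.0448), as was Nrxn3 (0.32, adjusted p = 0.0267). Under MM401 Lrrtm4 stood at 1393, 1068 and 1019 CPM in water and 1410, 1516 and 1222 CPM in bicuculline at 1 h. At 4 h it stood at 1191 and 1093 CPM in water and 1010, 949.8 and 662.2 CPM in bicuculline, which is -0.39 ± 0.19 on the log2 scale (edgeR adjusted p = 0.106) and no overlap. That value was called lower with the gene length correction (-0.33, adjusted p = 0.0134) and with plain library totals (-0.47, adjusted p = 0.0234).

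Of the catenin genes that contain members, Ctnna1 rose along with Lrrtm2, while Ctnna2 and Lrrtm1 were called in opposite directions at 4 h in MM401. Ctnna1, the host of Lrrtm2, rose in all 4 comparisons, with log2 fold changes of 0.52 and 0.29 in DMSO and 0.45 and 0.46 in MM401 (edgeR adjusted p from 5.17e-05 to 0.00806). The call at 4 h in DMSO was lost without water replicate 1. Ctnna2, the host of Lrrtm1, had log2 fold changes of 0.38 (adjusted p = 0.00442), 0.07 (adjusted p = 0.591), 0.25 (adjusted p = 0.0575) and -0.33 (adjusted p = 0.0238), and the call at 1 h was lost with the gene length correction. Its call at 4 h in MM401 was lost without bicuculline replicate 3, or without water replicate 1 or 2. Ctnna3, the host of Lrrtm3, was called in 1 of the 4, at 4 h in MM401, with -0.48 ± 0.12 (adjusted p = 0.00307).

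**Figure D3:**
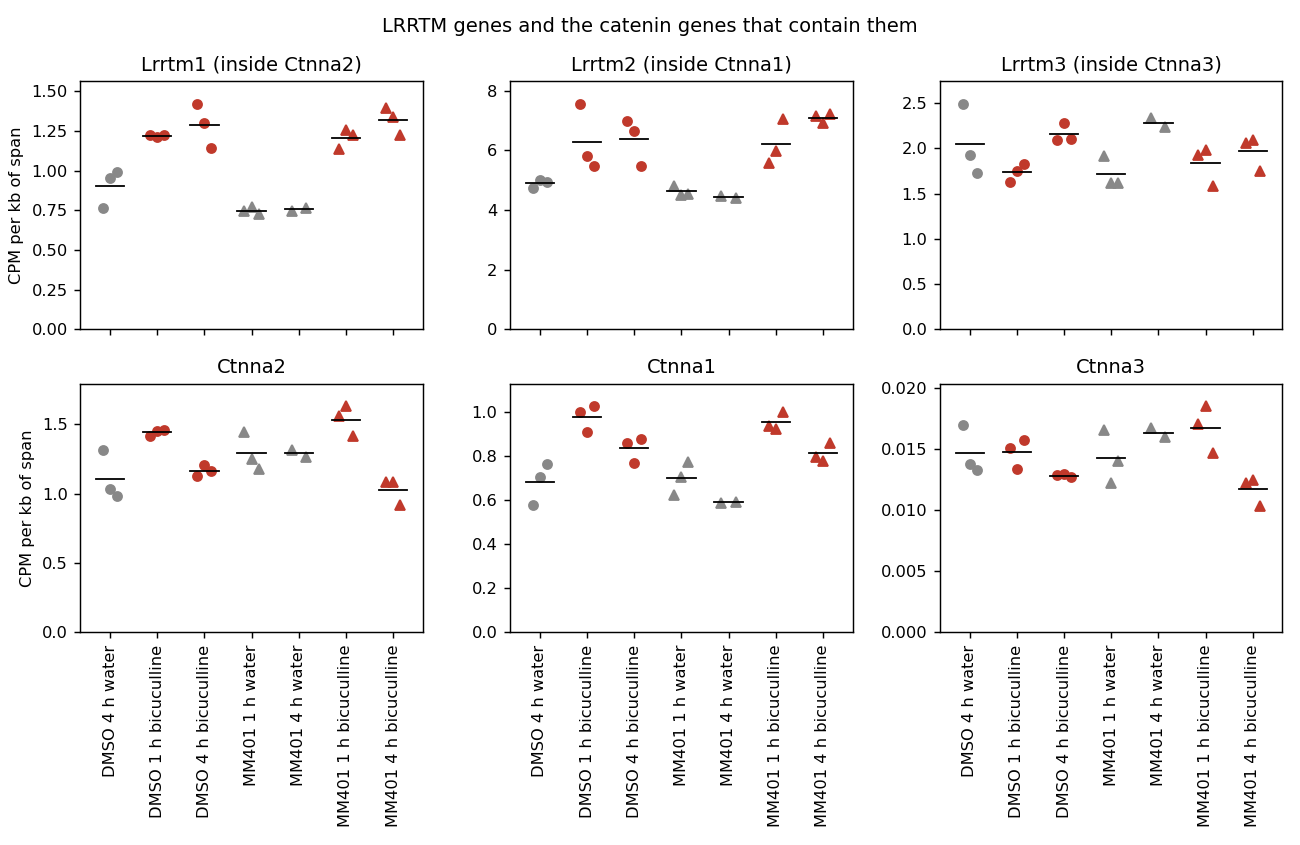
CPM per kb of gene span (vertical axis from 0) in the 20 libraries, for the 3 LRRTM genes that lie inside α-catenin genes (top) and for their hosts (bottom); grey marks water, red bicuculline, circles DMSO, triangles MM401, and black lines group means. Ctnna2 has its lowest group mean at 4 h of bicuculline under MM401, where Lrrtm1 is at its highest group mean.

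Between 1 h and 4 h of bicuculline, 1 member was called in DMSO, higher, and 3 in MM401, all lower. Of all genes, 34.2% were called in DMSO (19.1% higher and 15.2% lower) and 33.6% in MM401 (17.5% higher and 16.0% lower). In DMSO it was Lrrtm3, which rose by 0.31 ± 0.11 on the log2 scale (edgeR adjusted p = 0.0359). That call was lost when any 1 of the 6 libraries was left out, with adjusted p between 0.0572 and 0.124 and log2 fold changes between 0.27 and 0.34. Lrrtm4 (-0.28 ± 0.17, adjusted p = 0.229) was called lower there with the gene length correction (-0.26) or when only the groups compared were fitted (-0.31). Nrxn3 was called higher there with the gene length correction (0.14, adjusted p = 0.0122), and Nrxn2 lower with plain library totals (-0.18, adjusted p = 0.0423). In MM401 Lrrtm4 fell by 0.66 ± 0.17 (adjusted p = 0.00562), Nlgn1 fell by 0.42 ± 0.14 (adjusted p = 0.0223) and Nrxn2 fell by 0.20 ± 0.06 (adjusted p = 0.0185). Of genes over 500 kb, the class of Lrrtm4 and Nlgn1, 48.1% were called lower in this comparison. Of those of 100 to 500 kb, the class of Nrxn2, 36.1% were. Within these classes Lrrtm4 lay at percentile 13.1, Nlgn1 at 30.6 and Nrxn2 at 39.5. The Lrrtm4 call held in all 13 alternatives run on it, with log2 fold changes from -0.78 to -0.39. The Nlgn1 call was lost without replicate 1 or 2 of MM401 with bicuculline at 1 h or replicate 3 of MM401 with bicuculline at 4 h, and the Nrxn2 call without replicate 1 at 1 h or replicate 2 at 4 h. With the gene length correction the Nlgn1 value was -0.13 and not called (adjusted p = 0.107), and that of Nrxn2 was -0.14 and not called (adjusted p = 0.0592). With plain library totals Nrxn2 was at -0.12 and not called (adjusted p = 0.178). In water under MM401, 4 h against 1 h called no member (1 had an unadjusted p under 0.05, and DESeq2 called 0), against 0.867% of genes. That member was Lrrtm3 (0.41 ± 0.13, adjusted p = 0.153), which was called higher with the gene length correction (0.40), plain library totals (0.35) or only the groups compared (0.42).

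MM401 against DMSO called no member in any of the 3 matched groups. In water at 4 h, edgeR called 0 members (2 had an unadjusted p under 0.05, and DESeq2 called 0), against 0.0826% of genes. Those 2 were Lrrtm1, with a log2 fold change of -0.26 ± 0.10 (adjusted p = 0.281), and Nrxn2, with 0.18 ± 0.07 (adjusted p = 0.301). Without replicate 1 of DMSO with water, Lrrtm1 at -0.36 (adjusted p = 0.0197) and Nrxn3 at 0.43 (adjusted p = 0.0441) were called. Leaving out that library also took the calls over all genes from 14 of 16959 to 1272 of 16958. In bicuculline, edgeR called 0 members at 1 h, against 0.00590% of genes, and 0 at 4 h, against 0.00%, with 0 unadjusted p under 0.05 and 0 DESeq2 calls at each time. The widest of the 95% intervals in bicuculline was that of Lrrtm4, from -0.19 to 0.53 at 1 h and from -0.57 to 0.14 at 4 h.

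**Figure D4:**
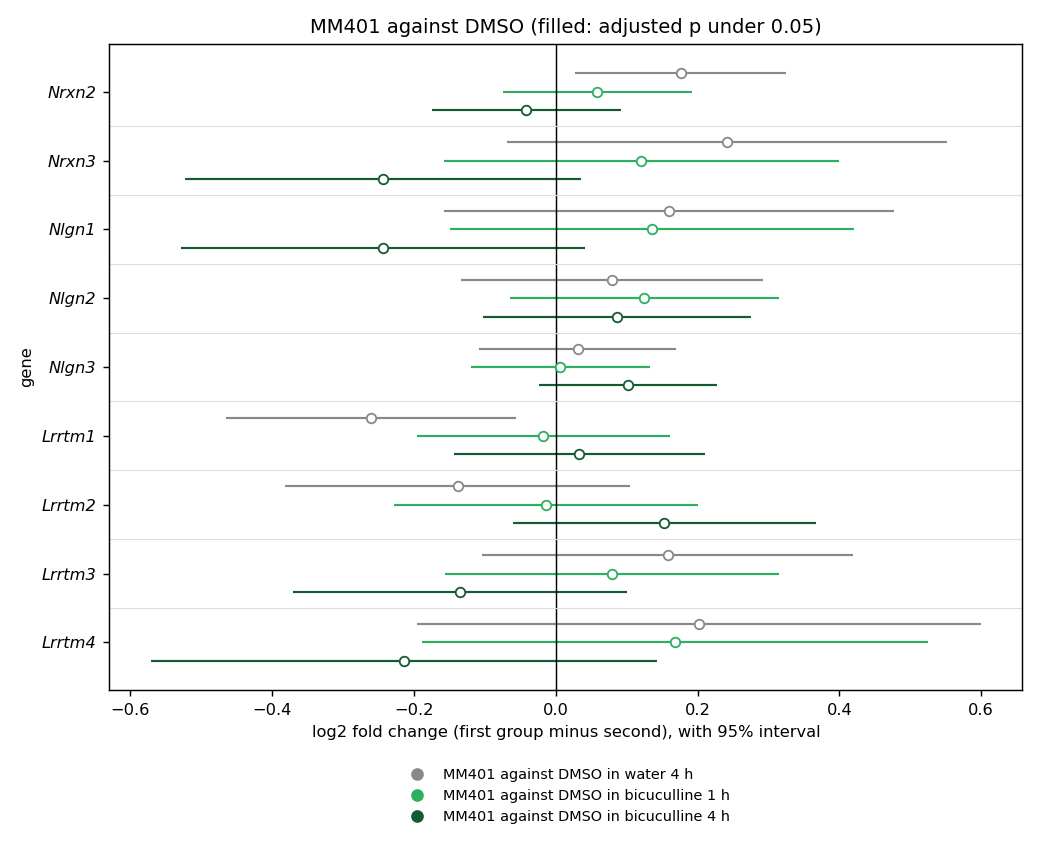
Log2 fold change of MM401 against DMSO (horizontal axis) with its 95% interval for each of the 9 genes, for the 4 h water groups and both bicuculline times; open circles did not reach an adjusted p under 0.05. All circles are open.

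The response to 4 h of bicuculline under MM401 minus that under DMSO was tested as an interaction. edgeR called 0 members (3 had an unadjusted p under 0.05), against 0.00% of genes. The 3 were Nrxn3, at -0.49 ± 0.20 (adjusted p = 0.279), Nrxn2, at -0.22 ± 0.10 (adjusted p = 0.298), and Lrrtm1, at 0.29 ± 0.13 (adjusted p = 0.3004). DESeq2 called 1 member, Nrxn3 (-0.51). It called 436 of the 2164 genes to which it gave an adjusted p, and 0.459% of those calls were higher. So the larger rise of Lrrtm1 under MM401 was not shown to differ from that in DMSO. Without DMSO water replicate 1, 4 members were called, namely Nrxn3 (-0.68), Nlgn1 (-0.61), Lrrtm3 (-0.46) and Lrrtm1 (0.40), with adjusted p between 0.0168 and 0.0394, and the calls over all genes went from 0 to 1551.

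In the 4 comparisons of bicuculline with water, Nrxn3, Nlgn1 and Lrrtm4 lay between percentiles 18.9 and 68.9 of genes of like length. Among the 206 tested genes over 500 kb, the class of Nrxn3, Nlgn1 and Lrrtm4, the median log2 fold change was 0.27 and 0.27 in DMSO and 0.26 and -0.05 in MM401, at 1 h and 4 h of bicuculline. Nrxn3 lay at percentiles 60.7, 68.9, 48.1 and 47.1 of that class, Nlgn1 at 28.2, 35.9, 21.4 and 31.6, and Lrrtm4 at 63.1, 20.4, 46.1 and 18.9. Outside these comparisons Lrrtm4 was at percentile 13.1 for 4 h against 1 h of bicuculline in MM401 and at 95.1 for MM401 against DMSO at 1 h. Among the 2144 genes of 100 to 500 kb, Lrrtm3 lay at percentiles 3.59 and 36.1 at 1 h and 4 h in DMSO and 34.5 and 26.8 in MM401, and Nrxn2 at 28, 25.7, 9.42 and 22.9. For water 4 h against 1 h in MM401, Lrrtm3 lay at 98.5. In the interaction the genes over 500 kb had a median of -0.39 and those of 100 to 500 kb a median of -0.18. By contrast, genes under 20 kb had a median of -0.16 at 4 h in DMSO, where Lrrtm1, Lrrtm2 and Nlgn2 lay at percentiles 90.3, 86.8 and 85.2. The part of gene length in these results was not tested beyond the correction given in the closing section.

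**Figure D5:**
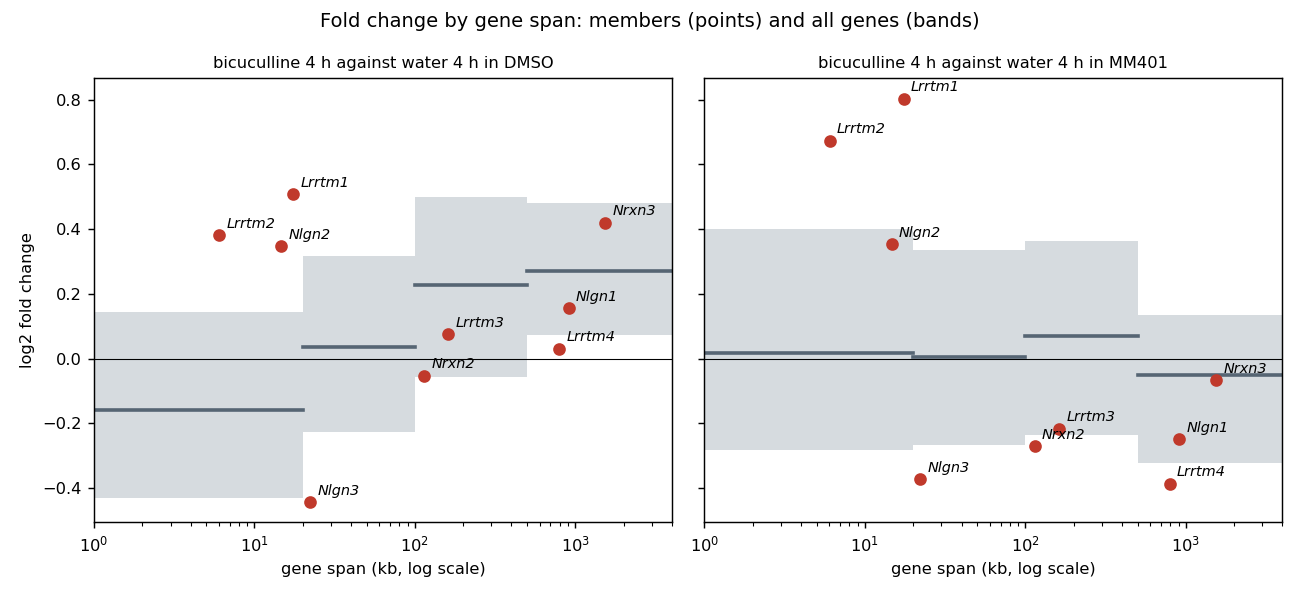
Log2 fold change (vertical axis) against gene span (kb, log scale) for the 9 genes (red points) at 4 h of bicuculline in DMSO and in MM401; grey bands span the middle quartiles of all tested genes by length class and dark lines the class medians. The class over 500 kb has a median of 0.27 in DMSO and -0.05 in MM401.

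Over the 20 libraries the log2 CPM of Nlgn1 and Lrrtm4 had a Pearson correlation of 0.95, Nrxn3 and Nlgn1 of 0.87, and Lrrtm1 and Lrrtm2 of 0.90, while Lrrtm1 and Nlgn3 had -0.86. These correlations share libraries and treatments and are given as a description. By the same measure, the 2 genes most like each member were Fgf14 and Dlg2 for Nrxn3 (0.97 and 0.97), Nkain2 and Kcnip4 for Nlgn1 (0.98 and 0.97), and Nrg3 and Macrod2 for Lrrtm4 (0.97 and 0.97). They were Itm2b and Itgb8 for Lrrtm1 (0.97 and 0.96), Gpr22 and Mybl1 for Lrrtm2 (0.97 and 0.96), Lrfn5 and Cntn1 for Lrrtm3 (0.94 and 0.91), and Dnmt3a and Cttn for Nrxn2 (0.94 and 0.92). For Nlgn2 they were Adam15 and Fam160a2 (0.92 and 0.91), and for Nlgn3 Gtf2h3 and Slc38a7 (0.97 and 0.97).

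Partners of these proteins also changed with bicuculline, as did many other genes. At 4 h, 23.7% of all tested genes were called higher and 25.5% lower in DMSO, and 23.0% and 21.7% in MM401. Of 17 tested ligands and regulators of neurexins and neuroligins, 9 rose and 5 fell at 4 h in DMSO, and 7 rose and 3 fell in MM401, with medians of 0.17 and -0.03. C1ql3, a secreted ligand, rose by 1.94 ± 0.12 in DMSO and 2.23 ± 0.15 in MM401 (edgeR adjusted p = 5.80e-10 and 2.21e-09), the largest rise in the list in both. C1ql2 (0.97 and 1.37) and Clstn3 (0.86 and 0.43) also rose, and Mdga1, which binds neuroligins and keeps neurexins from them, fell by 0.41 and 0.66. Adgrl1, a latrophilin, fell by 0.35 and 0.42, and Lhfpl4, a partner of neuroligin-2 at GABA-A receptors, fell by 0.32 and 0.50. Of 19 tested LAR receptor phosphatases and their ligands, 8 rose and 3 fell in DMSO and 6 rose and 2 fell in MM401, with medians of 0.28 and 0.01. Slitrk4 (1.15 and 1.17), Slitrk2 (0.90 and 1.22) and Slitrk6 (0.78 and 0.83) rose, while Lrfn3 fell by 0.86 and 0.68 and Lrrc4b by 0.64 and 0.49.

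Of 23 other synaptic adhesion genes, 12 rose and 3 fell at 4 h in DMSO and 9 rose and 4 fell in MM401, with medians of 0.30 and 0.07. Igsf9b (0.86 and 0.60), Efnb2 (0.82 and 0.90) and Tenm3 (0.82 and 0.42) rose, and Efnb3 fell by 0.63 and 0.50 and Ephb2 by 0.61 and 0.82. Of 20 scaffold genes, 10 rose and 2 fell in DMSO and 7 rose and 5 fell in MM401, with medians of 0.22 and -0.03. Dlg1 (1.07 and 0.69), Gphn, the scaffold of inhibitory synapses (0.76 and 0.46), and Lin7a (0.67 and 0.36) rose, and Shank3, a scaffold of excitatory synapses, fell by 0.35 and 0.65. Over all genes 23.7% were called higher and 25.5% lower in DMSO, and 23.0% and 21.7% in MM401. Some calls rest on 1 library. Leaving out replicate 1 of the MM401 water group at 4 h lowered the MM401 counts of the other adhesion list and of the scaffolds. Leaving out replicate 2 lowered that of the ligands. Calls over all genes fell as well in both fits, which left that group with 1 library. C1ql2 lost its DMSO call without bicuculline replicate 3 or water replicate 1 and its MM401 call without water replicate 2. In MM401, Clstn3 and Lin7a lost their calls without either water library, Efnb3 without either water library or bicuculline replicate 3, and Slitrk6 without water replicate 2 or bicuculline replicate 2. With plain library totals C1ql2 and Slitrk6 lost their DMSO calls, and with the shallow library Adgrl1 lost its MM401 call.

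The cultures held other cell types as well, and in bulk RNA fewer cells of a type and less RNA per cell cannot be told apart. The summed level of 5 neuron markers was 4523 to 5673 CPM in DMSO with water, 5525 to 5922 CPM at 1 h of bicuculline, which overlapped, and 6693 to 7194 CPM at 4 h. In MM401 it was 4566 to 4844 against 5350 to 6380 CPM at 1 h and 5342 to 5482 against 6045 to 6616 CPM at 4 h, without overlap. That of 5 inhibitory-neuron markers was 326.5 to 384.4 CPM in water and 494.8 to 688.6 CPM in bicuculline, without overlap. The 7 markers of the oligodendrocyte lineage summed to 160.4 to 187.4 CPM in water and 188.1 to 215.8 CPM in bicuculline, without overlap. The 5 excitatory-neuron markers stood at 648.4 to 819 CPM in DMSO with water against 1055 to 1133 CPM at 4 h of bicuculline, and at 803.1 to 818.8 against 970.3 to 1082 CPM in MM401 at 4 h. At 1 h of bicuculline they stood at 828.1 to 902.1 CPM in DMSO, and at 806.1 to 992.3 against 697.1 to 749.3 CPM in MM401. The 6 astrocyte markers summed to 458.9 to 691.7 CPM in DMSO with water, 730.7 to 837.2 CPM at 1 h of bicuculline and 601.6 to 677.8 CPM at 4 h. Under MM401 they summed to 526.6 to 710.3 CPM in water and 796.6 to 872.9 CPM in bicuculline at 1 h, and to 425.1 to 524.6 against 593.2 to 666.8 CPM at 4 h, so the 4 h groups in DMSO were the only ones to overlap. The 5 microglial markers summed to 23.4 to 27.8 CPM in DMSO with water and 28.3 to 33.1 CPM at 4 h of bicuculline, and to 23.0 to 25.7 against 31.9 to 36.1 CPM at 4 h in MM401, without overlap, while at 1 h the ranges overlapped. Apart from the neuron sum at 1 h in DMSO, the astrocyte sum at 4 h in DMSO and the microglial sums at 1 h, these ranges lay higher in bicuculline than in the matched water group. A sum is weighted to its most abundant markers, and markers within a list moved both ways. Of the neuron markers, 3 were called higher and 2 lower at 4 h in DMSO, and 2 higher and 2 lower in MM401. Of the excitatory-neuron markers, 2 were called higher and 1 lower at 4 h in each. The part of these cell types in the values of the members was not tested. The 6 endothelial and fibroblast markers summed to 3.70 to 7.61 CPM over all groups, and no listed marker was at 0 in all libraries.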

How the data were processed

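BrU-seq counts of 20 libraries in 7 groups were analysed, the groups and replicate numbers being taken from the labels. The authors deposited raw read counts per whole gene in 1 table of 24984 genes, made with featureCounts on mm10 per the file headers. The submitters' processing notes also name Bowtie2, UMI-tools, deepTools and DESeq2, without settings; strandedness, the handling of multi-mapping reads and the annotation release are not given in the sources used here. For 412 genes the table lists more than 1 position. The 21st library, of 316741 counts, was left out.

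Counts were fitted in R 4.3.3 with edgeR 4.0.16: filterByExpr by group (minimum count 10, minimum total 15, leaving 16959 genes), TMM scaling, and a robust quasi-likelihood model with a mean per group. Adjusted p-values are Benjamini-Hochberg over all 16959 genes in each of 11 comparisons, and called means under 0.05. SE come from the F statistic, 95% intervals from its degrees of freedom, and all tests were two-sided. The procedure was tested on simulated counts. The p-values measure the spread between cultures that the labels call biological replicates. Chi-square per degree of freedom between replicates was at least 6.14, so no pair agreed within sampling noise. Among the 20 libraries it was highest for replicate 1 of DMSO with water, at 45.6 and 78.5 against replicates 2 and 3, which gave 18.6 between them.

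The members, the 4 lists of related genes, the cell type markers and the tests were chosen with earlier results of these data known. All 9 members are named, with the catenin genes that overlap them. From each list up to 3 genes with the largest rise and up to 3 with the largest fall at 4 h of bicuculline in DMSO are named, among those called in the same direction there and in MM401. For each member the 2 genes of highest Pearson correlation of log2 CPM are named, from tested genes with a mean of at least 1 CPM, leaving out overlapping and predicted genes and those of small RNAs.

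Groups share replicate numbers, whose meaning the labels do not give. The sample titles number the libraries in sequence, each replicate number as a run of all groups. Of 45 correlations of deviations of same-numbered libraries, 24 were over 0.1 (median 0.10, range -0.23 to 0.28). MM401 with water at 4 h was left out of them, so the comparisons that use it were not assessed. Of 15 pairs of groups, 3 had all 3 over 0.1. Among the comparisons that were assessed, only MM401 against DMSO at 4 h of bicuculline was such a pair. Alternatives were the 21-library fit, plain library totals, no filter, a replicate block, a gene length correction, only the groups compared, DESeq2 1.42.0 and leaving out each library.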

Additional observations from a re-analysis of the deposited data

How the results depend on the processing

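Counts of called members changed by more than 1.5 times as follows, and the cause was not tested unless the setting itself removes samples. With the shallow library, 3 members were called at 4 h of bicuculline in DMSO, 0 for 4 h against 1 h in DMSO and 1 for 4 h against 1 h in MM401, with 6411, 3745 and 3646 of 16784 genes called. With plain library totals these were 3 at 4 h in DMSO, 8 at 4 h in MM401, 2 for 4 h against 1 h in DMSO and 1 for water 4 h against 1 h, with 9687, 6932, 5146 and 178 of 16959 genes called. The gene length correction gave 5 at 1 h in DMSO, 8 at 4 h in MM401, 3 for 4 h against 1 h in DMSO, 1 for 4 h against 1 h in MM401 and 1 for water, with 6983, 8015, 6198, 5820 and 235 of 16959 genes called. Fitting only the groups compared gave 2 for 4 h against 1 h in DMSO and 1 for water, with 5098 of 16280 and 328 of 16268 genes called. DESeq2 gave 1 for the interaction, with an adjusted p for 2164 genes, of which it called 436 where edgeR called 0. Leaving out 1 library, members called ranged from 2 to 6 at 1 h and 4 to 7 at 4 h in DMSO, 3 to 4 and 4 to 5 in MM401, 0 to 2 for MM401 against DMSO in water, 0 to 0 for 4 h against 1 h in DMSO, 1 to 3 in MM401, and 0 to 4 for the interaction. Without replicate 1 of DMSO with water, the calls over 16958 genes were 7892 at 1 h and 8167 at 4 h in DMSO, 1272 for MM401 against DMSO in water and 1551 for the interaction. Without replicate 1 of MM401 with bicuculline at 1 h, 4624 of 16950 genes were called for 4 h against 1 h in MM401. For 4 h against 1 h in DMSO, where 0 members were called, 4875 to 5317 genes were called, of 16890 to 16965 tested. Without replicate 1 of DMSO with bicuculline at 1 h, 6830 of 16890 genes were called at 1 h in DMSO, with 2 members. Where leaving out 1 library left 1 library of MM401 with water at 4 h, that library was assumed to vary like the other groups.

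The replicate block gave 5 members at 1 h in DMSO, adding Nrxn3 and Lrrtm4, with 8035 of 16959 genes called, and changed no other call of a member. For MM401 against DMSO at 4 h of bicuculline, where the numbers may pair the cultures, it called 0 members, as without it.

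Values that turned sign with a call on either side were Lrrtm3 at 4 h in DMSO with plain library totals (-0.19), Ctnna2 there with plain totals (-0.19) and with the length correction (-0.22), Ctnna3 at 1 h in DMSO with the length correction (-0.33) and Tenm3 at 1 h in DMSO with the length correction (-0.011). Over 99 member values, plain totals lost 9 calls and gained 8, and the length correction lost 2 and gained 10. Of the values called in the main analysis, those of members kept their sign in every setting. Dropping the low-count filter changed none of the 99 member calls. The fits have 13 residual degrees of freedom and 1 group has 2 libraries, so the spread between libraries limits the precision.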
